A study of Homo sapiens with 3 samples.

Results

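The miR-200 family was examined in small RNA libraries of HCCLM3 cells, an established line of human hepatocellular carcinoma (HCC). Its members were taken by name as every listed mature miRNA called hsa-miR-200a, hsa-miR-200b, hsa-miR-200c, hsa-miR-141 or hsa-miR-429, on either arm of the hairpin. This gave 9 of the 1921 listed names, of which 6 had at least 1 count, compared with 877 of all names. The libraries came from 3 strains grown in DMEM. The parent was labelled as low in metastasis, subclone1 as more able to metastasize to lung, and subclone2 as able to reach both lung and celiac lymph nodes. The study described clones grown from single cells of xenograft metastases of a fluorescent HCCLM3 derivative, and it called that parental line highly metastatic, whereas the label of the parent library says low. Each strain had 1 library. Each value is therefore that of 1 culture, and a subclone stands for 1 line and not for a tropism.

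A miRNA is cut from a hairpin precursor and guides a silencing complex to messenger RNAs. Pairing rests mainly on its seed, which is bases 2 to 8 from the 5′ end. The miR-200 family is known as a marker of epithelial cells. It represses ZEB1 and ZEB2, which are transcription factors that shut off E-cadherin and drive the epithelial-mesenchymal transition (EMT), and these factors in turn repress the miR-200 genes. Loss of the family is linked to invasion in carcinoma cells, while its return has been linked to outgrowth at distant sites.

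The family is made from a pair of genomic clusters. MIR200B, MIR200A and MIR429 lie within 1984 bases on chromosome 1 (chr1:1167104-1169087, plus strand, GRCh38.p14), inside the long non-coding RNA gene MIR200BHG of RefSeq. MIR200C and MIR141 lie within 493 bases on chromosome 12 (chr12:6963699-6964191, plus strand), in an intron of MIR200CHG in GENCODE release 29. RefSeq held the mature sequence of 8 of the 9 names, and hsa-miR-141-5p was the exception. The dominant 3p arms are shown to let their seeds be compared, with the seed in capitals.
hsa-miR-200b-3p: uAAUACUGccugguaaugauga
hsa-miR-200c-3p: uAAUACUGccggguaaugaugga
hsa-miR-429: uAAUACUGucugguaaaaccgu
hsa-miR-200a-3p: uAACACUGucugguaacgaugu
hsa-miR-141-3p: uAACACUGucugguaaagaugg

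The seeds divide the family differently from the genome. hsa-miR-200b-3p, hsa-miR-200c-3p and hsa-miR-429 share 1 seed, and hsa-miR-200a-3p and hsa-miR-141-3p share the other, which differs from it by U4C with positions counted from 1 at the 5′ end. No other listed name with a sequence carried either seed. Each seed group thus holds members of both clusters. Across the clusters, 2 pairs within a seed group are also nearly identical. hsa-miR-200b-3p and hsa-miR-200c-3p differ over their first 22 bases only by U11G and A22G, and hsa-miR-200a-3p and hsa-miR-141-3p only by C17A and U22G. hsa-miR-429 stands further off, with 6 substitutions from hsa-miR-200b-3p and 7 from hsa-miR-200c-3p. How reads with a sequencing error at such a base were assigned is not given in the sources used here, so the division within these pairs is uncertain. The seed group sums avoid this uncertainty, whereas the cluster sums do not.

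The starts of both host genes were searched for the E-box CACCTG, the sequence that ZEB factors recognise, on both strands (CAGGTG on the other). The 300 bases around each start are shown because the clusters are transcribed from these regions, with each match in capitals. The first is chr1:1162627-1162926 and the second chr12:6962995-6963294, both plus strand, GRCh38.p14.
MIR200BHG: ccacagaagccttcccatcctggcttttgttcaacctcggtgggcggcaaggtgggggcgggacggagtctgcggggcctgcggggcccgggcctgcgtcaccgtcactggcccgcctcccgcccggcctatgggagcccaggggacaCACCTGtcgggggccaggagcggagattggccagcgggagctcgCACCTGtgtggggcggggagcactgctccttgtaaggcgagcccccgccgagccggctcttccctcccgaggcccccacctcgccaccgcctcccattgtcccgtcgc
MIR200CHG: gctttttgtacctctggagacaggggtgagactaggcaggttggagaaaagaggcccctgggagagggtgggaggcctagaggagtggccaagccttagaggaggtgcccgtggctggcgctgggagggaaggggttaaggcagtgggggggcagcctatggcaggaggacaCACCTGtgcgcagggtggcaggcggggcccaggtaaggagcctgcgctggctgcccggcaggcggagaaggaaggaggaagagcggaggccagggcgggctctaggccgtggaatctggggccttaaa

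The MIR200BHG window held 2 matches and the MIR200CHG window 1. Of 35116 such windows in the reference, 20.6% held at least 1 match and 3.49% held at least 2. In each host gene 1 match read ACACCTG, with an A before the E-box, a form found on the gene's strand in 2.12% of all windows. These matches describe the sequence only, since binding was not measured.

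Depth, as total counts, was 7902438 for the parent, 3570864 for subclone1 and 4568075 for subclone2. Levels are given in CPM, the count scaled to a library total of 1e+06. A miRNA with 0 counts may stand at up to 0.380, 0.840 or 0.657 CPM in these libraries, taking 3 counts as the limit. The intervals given are exact 95% binomial intervals (Clopper-Pearson). For 0 counts these reach up to 0.467, 1.03 and 0.808 CPM. They cover counting error only, and no p-value between strains was possible. As a check of the cell type, the hepatocyte miRNAs miR-192, miR-194, miR-122 and miR-885 were read. They had 5 of 8 names detected and a summed level of 18647.5, 60531.3 and 69348.5 CPM, nearly all from hsa-miR-192-5p. hsa-miR-122-5p, the defining miRNA of the hepatocyte, had only 53, 19 and 18 counts, and both arms of miR-885 were at 0. The summed level of the hepatocyte list was lowest in the parent and highest in subclone2, as was that of the miR-200 family. hsa-miR-192-5p, hsa-miR-192-3p and hsa-miR-194-3p had this order. For hsa-miR-192-3p it rests on 5, 5 and 7 counts, with intervals of the log2 ratio that included 0 in each comparison. For hsa-miR-194-3p, with 37, 27 and 57 counts, the interval in subclone1 against the parent included 0. hsa-miR-122-5p had the reverse order (6.71, 5.32 and 3.94 CPM), but within counting error. Its log2 ratio against the parent was -0.31 (-1.17 to 0.45) in subclone1 and -0.74 (-1.63 to 0.03) in subclone2. hsa-miR-194-5p had 107.9, 270.8 and 262.9 CPM, and the subclones could not be ordered, with a log2 ratio of -0.04 (-0.17 to 0.08) between them. The part of the hepatocyte list in the family's ratios was not tested. Markers of other cells were then read. The blood list had 5 of 7 names detected, with sums of 0.633, 1.96 and 1.53 CPM in parent, subclone1 and subclone2. In it hsa-miR-223-3p had 2, 4 and 5 counts, and hsa-miR-142-3p was at 0. The endothelial list had 2 of 2 names and 0.438 to 2.24 CPM, and the stromal list 4 of 6 names and 2.19 to 4.94 CPM with hsa-miR-199a-5p at 0. The muscle list had 3 of 4 names and 7.59, 23.2 and 7.88 CPM, with hsa-miR-133b at 0. Nearly all of it was hsa-miR-1, with 53, 77 and 32 counts (6.71, 21.6 and 7.01 CPM) and log2 ratios of 1.68 (1.16 to 2.22) in subclone1 against the parent and -1.61 (-2.26 to -1.01) in subclone2 against subclone1. The part of hsa-miR-1 or of these other lists in the family's ratios was not tested.

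The family was a minor component of every library. Its summed count was 629 in parental cells, 427 in subclone1 and 646 in subclone2, which corresponds to 79.6 CPM (interval 73.5 to 86.1), 119.6 CPM (108.5 to 131.5) and 141.4 CPM (130.7 to 152.8). The sum was thus lowest in the parent, and the intervals of parent and subclones did not overlap. Those of subclone1 and subclone2 overlapped at their edges.

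hsa-miR-200a-3p had the most reads of the family in each library, beyond counting error only in subclone2. It had 220 counts in parental cells, 160 in subclone1 and 279 in subclone2, or 27.8 CPM (24.3 to 31.8), 44.8 CPM (38.1 to 52.3) and 61.1 CPM (54.1 to 68.7). These intervals were separate, in the order parent, subclone1, subclone2. Separation was not counted over all miRNAs, here or for the family sum and the members below. Among miRNAs averaging 10 CPM or more in a comparison, 38.5% had a ratio interval above 1 in subclone1 against the parent. In subclone2 that share was 21.9% against the parent and 15.7% against subclone1. The rank of hsa-miR-200a-3p among all names by count was 134, 111 and 99.

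hsa-miR-200c-3p had 210, 135 and 174 counts, or, in the same order, 26.6 CPM (23.1 to 30.4), 37.8 CPM (31.7 to 44.7) and 38.1 CPM (32.6 to 44.2). The intervals of the subclones overlapped, and both lay above that of the parent. hsa-miR-200b-3p followed with 130, 86 and 119 counts, or 16.5 CPM (13.7 to 19.5), 24.1 CPM (19.3 to 29.7) and 26.1 CPM (21.6 to 31.2). Its parent interval overlapped that of subclone1 and was separate from that of subclone2. hsa-miR-200a-3p and hsa-miR-200c-3p could not be ordered by reads in the parent or in subclone1, where their intervals overlapped, but were separate in subclone2. hsa-miR-200b-3p lay below hsa-miR-200c-3p in each library. Ligation of adapters favours some RNA ends, so these orders are of reads and not of molecules.

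**Figure D1:**
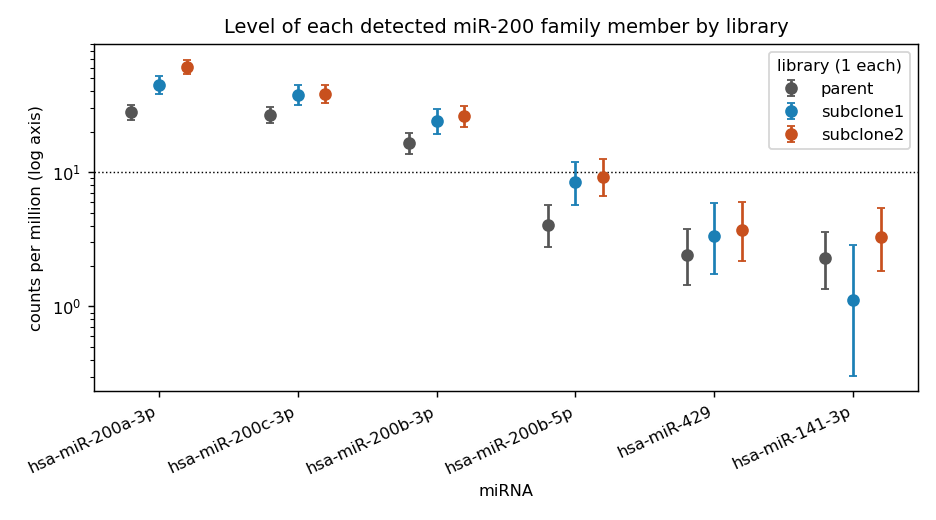
Level of the 6 detected members in CPM (log axis) in the 1 library of each strain, with exact 95% binomial intervals and a dotted line at 10 CPM. hsa-miR-200a-3p, hsa-miR-200c-3p and hsa-miR-200b-3p lie above the line in every library, and the parent is lowest for each of them.

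The remaining members were scarce. hsa-miR-200b-5p, the other arm of the MIR200B hairpin, had 32, 30 and 42 counts (4.05, 8.40 and 9.19 CPM). hsa-miR-429 had 19, 12 and 17 counts (2.40, 3.36 and 3.72 CPM), and its intervals overlapped in all libraries. hsa-miR-141-3p had 18, 4 and 15 counts (2.28, 1.12 and 3.28 CPM), and its intervals overlapped in all libraries. It was far less often read than hsa-miR-200c-3p, its neighbour within the same 493 bases of chromosome 12. hsa-miR-200a-5p, hsa-miR-200c-5p and hsa-miR-141-5p had 0 counts in every library.

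The first question was how the family stood in subclone1, the strain with more metastasis to lung, relative to the parent. Ratios were taken on CPM after 0.5 was added to every count. A miRNA was kept if the pair of libraries averaged 10 CPM or more. A call required a 2-fold ratio in either direction, with a conditional binomial interval (exact, 95%) that did not include 1. Of the 6 detected members, 3 were kept, namely hsa-miR-200a-3p, hsa-miR-200b-3p and hsa-miR-200c-3p. None of the 3 was called, whereas 9.90% of the 192 kept miRNAs were called higher. The log2 ratio was 0.69 for hsa-miR-200a-3p (0.38 to 0.99), 0.55 for hsa-miR-200b-3p (0.14 to 0.95) and 0.51 for hsa-miR-200c-3p (0.19 to 0.83). All 3 intervals lay above 0, as did those of 38.5% of the kept miRNAs. The median of the 3 was 0.55 beside 0.02 for all kept miRNAs, whose upper quartile was 0.40. hsa-miR-200a-3p ranked 31, hsa-miR-200b-3p 36 and hsa-miR-200c-3p 39 of 192 from the top.

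Subclone2, the strain with dual tropism, was then compared with the parent. hsa-miR-200a-3p rose 2.19-fold, a log2 ratio of 1.13 (0.87 to 1.40), with a fold interval of 1.83 to 2.63 that reaches below 2. It was the 1 member called among the 3 kept. Of all 187 kept miRNAs, 5.88% were called higher. The log2 ratio was 0.66 for hsa-miR-200b-3p (0.29 to 1.03) and 0.52 for hsa-miR-200c-3p (0.22 to 0.82), neither of which reached 2-fold. Again all 3 intervals lay above 0, compared with 21.9% of the kept miRNAs. The median of the 3 was 0.66, while that of all kept miRNAs was -0.15 with an upper quartile of 0.09. The ranks from the top were 10 for hsa-miR-200a-3p, 16 for hsa-miR-200b-3p and 22 for hsa-miR-200c-3p of 187. The call of hsa-miR-200a-3p was made under each other scaling tried, with a log2 ratio up to 1.30. Both comparisons share the parent library, so their likeness is no independent support.

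**Figure D2:**
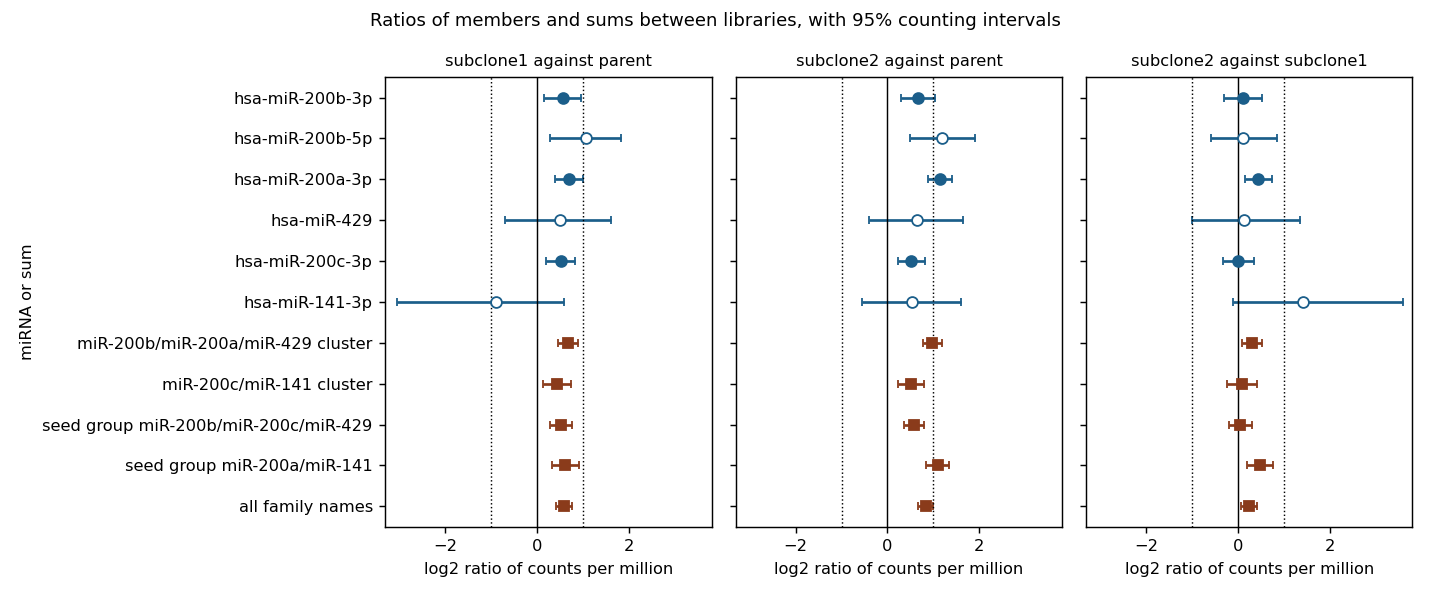
Log2 ratio of CPM in each comparison for the 6 detected members (circles, open where the mean was below 10 CPM) and for sums of members (squares), with 95% counting intervals. Dotted lines mark 2-fold in either direction, which among the kept members and the sums is passed by hsa-miR-200a-3p and the miR-200a/miR-141 seed group, both in subclone2 against parent.

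Between the subclones, whose labels differ in spread to lymph nodes, none of the 3 kept members was called, and 1.57% of 191 kept miRNAs were called higher. hsa-miR-200a-3p had a log2 ratio of 0.44 (0.16 to 0.74), with an interval above 0 as in 15.7% of the kept miRNAs. The log2 ratio was 0.11 for hsa-miR-200b-3p (-0.30 to 0.53) and 0.01 for hsa-miR-200c-3p (-0.32 to 0.35), and no difference was detectable for either. All kept miRNAs had a median of -0.17 here. TMM scaling, which sets a trimmed mean of the ratios to no change, moved this median up by 0.23 and that of subclone2 against parent up by 0.17.

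**Figure D3:**
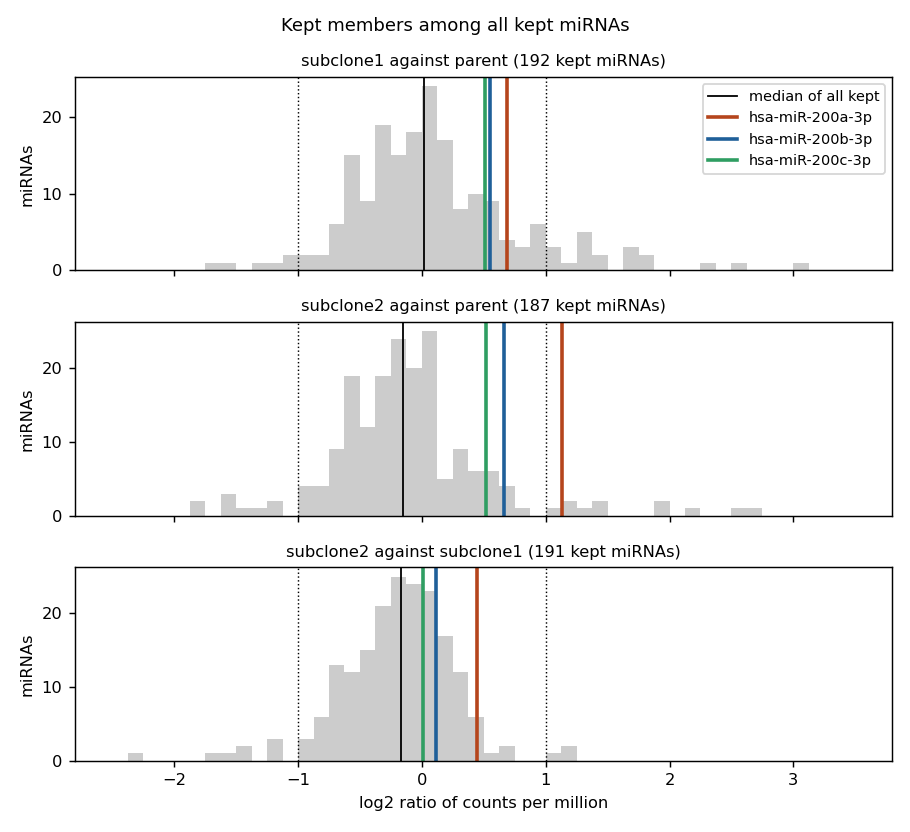
Histograms of the log2 ratios of all kept miRNAs in each comparison (horizontal axis, log2 ratio; vertical axis, number of miRNAs), with the 3 kept members as coloured lines, the median as a black line and 2-fold as dotted lines. The members lie to the right of the median in each comparison, and hsa-miR-200a-3p passes 2-fold in subclone2 against parent.

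The scarce members were below the minimum level and were given no call. hsa-miR-200b-5p had a log2 ratio of 1.05 in subclone1 (0.28 to 1.82) and 1.18 in subclone2 (0.48 to 1.89) against the parent. With no minimum it would have been called in both, where 67 and 75 miRNAs were called in all, up from 25 and 20. These counts pool higher and lower calls. Their share of all miRNAs compared without a minimum was not taken, so nothing is drawn from this call. Under the 3 other scalings its log2 ratio was 0.98 to 0.99 in subclone1, below 2-fold, and 1.25 to 1.35 in subclone2. The intervals of hsa-miR-429 included 0 in each comparison, with log2 ratios of 0.50, 0.63 and 0.13 in the order used above. hsa-miR-141-3p had -0.89 (-3.05 to 0.58) in subclone1 and 0.54 (-0.56 to 1.60) in subclone2 against the parent. Between the subclones it had 1.43 (-0.10 to 3.601), an interval that included 0, but under each of the 3 other scalings the interval lay above 0, with log2 ratios of 1.57 to 1.66. The value in subclone1 rests on 4 counts.

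The genomic clusters were next compared as sums. The cluster on chromosome 1 had 401 counts in parental cells, 288 in subclone1 and 457 in subclone2, or 50.7, 80.7 and 100.04 CPM. Its log2 ratio against the parent was 0.67 in subclone1 (0.45 to 0.89) and 0.98 in subclone2 (0.78 to 1.18), just short of 2-fold. With TMM scaling the latter was 1.15 and passed the threshold. The cluster on chromosome 12 had 228, 139 and 189 counts, or 28.9, 38.9 and 41.4 CPM, with log2 ratios of 0.43 (0.12 to 0.74) and 0.52 (0.23 to 0.80). Between the subclones the log2 ratio was 0.31 (0.09 to 0.53) for chromosome 1 and 0.09 (-0.24 to 0.41) for chromosome 12, and that of the whole family was 0.24 (0.06 to 0.42).

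The share of the family's counts that came from the chromosome 12 cluster does not depend on library scaling. It was 36.2% in parental cells (32.5 to 40.1), 32.6% in subclone1 (28.1 to 37.2), and 29.3% (25.8 to 32.9) in subclone2. The odds of a chromosome 12 read against a chromosome 1 read were 0.728 times those of the parent in subclone2 (0.571 to 0.926) and 0.849 times in subclone1 (0.649 to 1.11). The shift in subclone2 thus exceeded counting error. When hsa-miR-200a-3p was left out, the odds ratio in subclone2 was 0.843 (0.629 to 1.13), an interval that includes 1, and the log2 ratio of the rest of the chromosome 1 cluster in subclone2 against the parent was 0.77.

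The family was then divided by seed. The miR-200a/miR-141 seed group had 238, 164 and 294 counts, or 30.1, 45.9 and 64.4 CPM. It rose 2.14-fold in subclone2 against the parent, a log2 ratio of 1.09 (0.84 to 1.35), and had 0.61 (0.31 to 0.90) in subclone1. Of its counts, 220, 160 and 279 were those of hsa-miR-200a-3p, so the values of this group largely restate that member. The miR-200b/miR-200c/miR-429 seed group had 359, 233 and 310 counts, or 45.4, 65.3 and 67.9 CPM, with log2 ratios against the parent of 0.52 (0.28 to 0.76) and 0.58 (0.36 to 0.80) in the subclones. The odds of a miR-200a/miR-141 read against a miR-200b/miR-200c/miR-429 read in subclone2 were 1.43 times those of the parent (1.13 to 1.81) and 1.35 times those of subclone1 (1.04 to 1.75). In subclone1 they were 1.06 times those of the parent (0.813 to 1.39), so no shift was detectable there.

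Single pairs of members were then compared. In subclone2 against the parent, the odds ratio of hsa-miR-200a-3p against hsa-miR-200c-3p was 1.53 (1.16 to 2.02), and against hsa-miR-200b-3p, from its own cluster, 1.38 (1.01 to 1.90). The odds ratio of hsa-miR-200b-3p against hsa-miR-200c-3p, which share a seed and come from different clusters, was 1.10 (0.792 to 1.54). In this comparison the interval lay above 1 for both pairs with hsa-miR-200a-3p and included 1 for the pair without it. In the other comparisons it included 1 for each pair. hsa-miR-200a-3p against hsa-miR-200c-3p had 1.35 (0.994 to 1.84) and against hsa-miR-200b-3p 1.26 (0.884 to 1.79) in subclone2 against subclone1, and 1.13 (0.831 to 1.54) and 1.10 (0.772 to 1.57) in subclone1 against the parent. From parent to subclone2, hsa-miR-200a-3p went from 34.98% of the family's counts in the parent to 43.2% in subclone2. hsa-miR-200c-3p had 33.4% and 26.9%, and hsa-miR-200b-3p 20.7% and 18.4%.

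**Figure D4:**
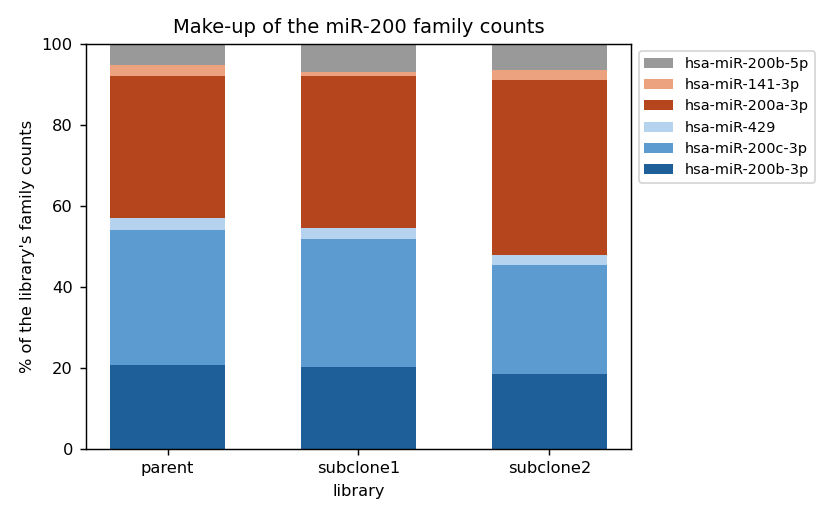
Share of each detected member in the family's counts (vertical axis, % of the library's family counts) in the 1 library of each strain, with the miR-200b/miR-200c/miR-429 seed group in blue, the miR-200a/miR-141 seed group in red and hsa-miR-200b-5p in grey. The blue part covers 57.1% in parental cells, 54.6% in subclone1 and 48.0% in subclone2.

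The arms of the hairpins were used unequally. The hairpins MIR200B and MIR200C are printed to show where the arms lie, with the mature arms in capitals and the 5p arm first (RefSeq, GRCh38.p14).
MIR200B: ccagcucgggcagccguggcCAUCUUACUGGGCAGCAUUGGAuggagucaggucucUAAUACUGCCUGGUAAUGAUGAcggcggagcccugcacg
MIR200C: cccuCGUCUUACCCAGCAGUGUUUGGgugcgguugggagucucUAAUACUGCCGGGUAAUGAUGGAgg

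The 5p arm of MIR200B took 19.8% of the counts of both arms in parental cells (13.9 to 26.7), 25.9% in subclone1 (18.2 to 34.8), and 26.1% (19.5 to 33.6) in subclone2. The odds of the 5p arm against the 3p arm in subclone2 were 1.43 times those of the parent, with an interval of 0.823 to 2.51, so a change of arm use was not detectable. The 5p arm of MIR200C had 0 of 210, 135 and 174 counts, which allows a share of up to 1.43%, 2.22% and 1.72% by the limit of 3 counts and up to 1.74%, 2.70% and 2.10% by the exact interval. That of MIR200A had 0 of 220, 160 and 279 counts, which allows up to 1.36%, 1.88% and 1.08% by the limit of 3 counts and up to 1.66%, 2.28% and 1.31% by the exact interval. The upper limits of both lay below the lower limit of MIR200B in each library. hsa-miR-200a-5p and hsa-miR-200b-5p share the seed AUCUUAC. Over the libraries together, 29 pairs of arms held at least 300 and fewer than 1000 counts, of which 5 (17.2%) had 0 counts on the lesser arm, MIR200A and MIR200C among them. The median share of the lesser arm in these pairs was 5.44%, and MIR200B, with 23.7%, ranked 7 of 29.

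**Figure D5:**
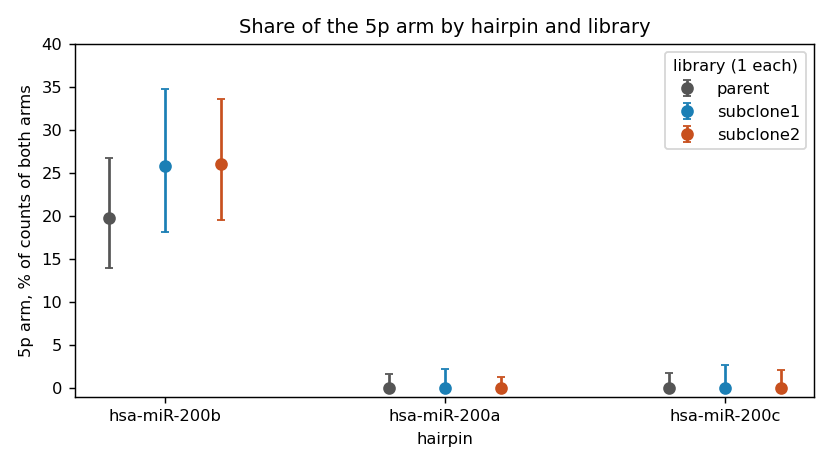
Share of the 5p arm in the counts of both arms (vertical axis, %) for the hairpins of miR-200b, miR-200a and miR-200c in the 1 library of each strain, with exact 95% binomial intervals. MIR200B lies between 19.8% and 26.1%, and the others are at 0 in every library.

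The miRNAs whose pattern lay closest to the summed family were sought by the distance between their pairs of log2 ratios against the parent. The family had 0.59 in subclone1 (0.41 to 0.77) and 0.83 in subclone2 (0.67 to 0.99). Among 189 other miRNAs that averaged 10 CPM or more over the libraries, the closest were hsa-miR-30a-3p (log2 0.50 and 0.58, distance 0.27), hsa-miR-548a-3p (0.84 and 0.68, distance 0.29) and hsa-miR-30b-3p (0.42 and 0.57, distance 0.31). hsa-miR-23b-3p (0.60 and 0.44) and hsa-let-7b-5p (0.42 and 0.48) followed, both at a distance of 0.39. The levels of hsa-miR-30a-3p were 61.0, 86.3 and 90.8 CPM, those of hsa-miR-548a-3p 11.8, 21.0 and 18.8 CPM, and those of hsa-miR-30b-3p 20.1, 26.9 and 29.8 CPM, lowest in the parent for each. Being lowest in the parent follows from choosing names close to the family's ratios. All of them also share the parent library with the family.

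Finally, a list of further miRNAs known to act on or respond to EMT factors was read, comprising miR-205, miR-203, miR-34a, miR-34b, miR-34c, miR-9, miR-10b, miR-155 and miR-375. Of 16 listed names 9 were detected, and only hsa-miR-34a-5p was kept in each comparison. hsa-miR-34a-5p, a p53 target that represses SNAI1, had 255, 59 and 48 counts (32.3, 16.5 and 10.5 CPM). It fell by 1.61 on the log2 scale in subclone2 against the parent, the 1 call in this list with library totals, where 4.81% of the kept miRNAs were called lower. In subclone1 its log2 ratio against the parent was -0.96 (-1.40 to -0.55). Between the subclones it was -0.65 (-1.23 to -0.08), and neither reached 2-fold. hsa-miR-205-5p, which also represses ZEB1 and ZEB2, had 0 counts in every library. hsa-miR-375 had 20, 4 and 5 counts and hsa-miR-34a-3p 20, 12 and 9, with no difference detectable at this depth. The list as a whole summed to 39.0 CPM in parental cells, 23.5 in subclone1 and 14.4 in subclone2, and most of its counts were those of hsa-miR-34a-5p. Without hsa-miR-34a-5p it held 53, 25 and 18 counts, or 6.71, 7.001 and 3.94 CPM. No interval was taken for these small sums, so no order is drawn from them. The list mixes miRNAs known to oppose EMT with others known to promote it.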

How the data were processed

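Small RNA libraries were prepared from 1 ug of total RNA with an Illumina TruSeq kit, 1 per strain. The authors deposited unscaled read counts per mature miRNA name. The submitters' processing notes name CASAVA 1.4 and the build hg19. How adapters were trimmed, the aligner, the miRBase release and the handling of multi-mapping reads are not given in the sources used here. Counts were scaled to the library total of all 1921 names. Ratios and intervals were computed over the whole table with scipy 1.17.1, and the code was tested on simulated data. TMM and size factors came from edgeR 4.0.16 and DESeq2 1.42.0. With 1 library per group no test between strains was made. Every detected member was named, with the 5 miRNAs of closest pattern and up to 3 of the EMT list with the most counts, and hsa-miR-205-5p was added after its value was seen. The members, lists and thresholds were chosen with earlier results of these data known. Sequences and positions are from RefSeq (GRCh38.p14) and GENCODE release 29. Sequences of 1576 names matched. hg19 coordinates were not used.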

Additional observations from a re-analysis of the deposited data

How the results depend on the processing

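No paired analysis was possible because a strain is represented by 1 library, which also means that none could be left out. The 9 ratios of kept members stayed on their side of the 2-fold rule in all 54 values under the alternatives. The log2 ratio of hsa-miR-200c-3p between the subclones was -0.00078 with 5 counts added, so no direction is drawn from it. No member reached a minimum of 100 CPM. In subclone2 against parent, the miR-200b/miR-200a/miR-429 cluster passed 2-fold under each other scaling, with log2 1.15 (TMM), 1.13 (median-of-ratios) and 1.05 (totals without 12 miRNAs, which were the 10 with the most counts in each library), and had 0.77 without hsa-miR-200a-3p, an alternative chosen after seeing the data. The whole family had 0.9999 under TMM and 0.66 as the median of its kept members. Between the subclones, the family had 0.47 (TMM) and 0.46 (median-of-ratios) and the cluster 0.54 (TMM), since these scalings shift all ratios alike. hsa-miR-141-3p took the ratio of its seed group when summed with hsa-miR-200a-3p, which passed 2-fold in subclone2.

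The number of called miRNAs was 25 in subclone1 against parent, 20 in subclone2 against parent and 11 between the subclones. It was 7, 5 and 2 with a minimum of 100 CPM, 67, 75 and 33 with none, 56, 50 and 36 at 1.5-fold, and 3, 3 and 1 at 4-fold. Between the subclones 3 were higher and 8 lower, or 3 and 5 under TMM and median-of-ratios scaling. Depth limits hsa-miR-429 and hsa-miR-141-3p most, and spread between cultures could not be measured.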
